A study of Homo sapiens with 16 samples.

Results

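The SOX transcription factors examined here are SOX2, SOX4, SOX5, SOX6, SOX7, SOX8, SOX9, SOX11, SOX12 and SOX13, taken as a listed set of 10 genes. Their members in the data are the N6-methyladenosine (m6A) regions that overlap the GENCODE spans of these genes on GRCh38 (hg38), 13 of the 36970 regions in the merged list, together with the 70 of 191974 peaks that fall in those spans in the 8 peak lists. RNA came from C4-2B, an enzalutamide-sensitive prostate cancer cell line, and from MDV-R, the enzalutamide-resistant line that was derived from C4-2B by passage in the drug and stays under it in culture. All cells were labelled wild type and were harvested at day 3. Each line had 4 libraries made with an antibody against m6A (IP) and 4 libraries made without it (input), so that 16 libraries were available. Each line is a single derived culture, nothing says that the 4 replicates were separate cultures, and p-values measure only the spread between these libraries.

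SOX proteins share a DNA-binding HMG box and are sorted into groups by its sequence. SOX2 belongs to the B1 group of stem cell and neural progenitor factors, SOX4, SOX11 and SOX12 to the C group of single-exon activators, SOX5, SOX6 and SOX13 to the D group, SOX8 and SOX9 to the E group, and SOX7 to the F group of endothelial factors. In prostate, SOX9 is known for its part in bud formation and in epithelial progenitors, and SOX2 for its link to lineage change. The mark m6A is written on adenosines in a short consensus by a nuclear methyltransferase complex, is often found near stop codons and in long exons, and is read by proteins that alter the decay or translation of the RNA.

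The strongest SOX summits differed in the bases beneath them. The consensus DRACH stands for A, G or T, then A or G, then A and C, then A, C or T, and its most methylated form starts with GGAC. The windows that follow are 21 nt of hg38 on the plus strand, which is the strand of each of these genes, around the DRACH match nearest to the median summit of a group of lists, with the match in capitals. In each window shown the match lay within 20 nt of the median summit of its group. The groups shown were of 8 lists for SOX4 and for SOX13, of 2 lists in each line for SOX11, and of C4-2B replicates 1 and 3 alone for SOX12. A SOX9 match also lay within that distance, 4 nt after the median of 8 summits at 2 places, and is not shown.
SOX4, 3′UTR, chr6:21596680-21596700: agccagtgTGACCggcgctag
SOX11, CDS, chr2:5693186-5693206: cggtgccaAGACCtccaaggg
SOX12, 3′UTR, chr20:327998-328018: ggggtttgGGACTgaggcgtg
SOX13, CDS of exon 14, chr1:204126072-204126092: gaggacgaGGACTcggagggc
The SOX4 match, whose A lay 5 nt before the median summit of 8 lists, does not hold GGAC, and the nearest GGAC had its A 69 nt after that summit. The SOX13 match lay 20 nt after the median summit and starts with GGAC. SOX12 summits formed a further group, of 6 lists with all 4 of MDV-R, where the nearest DRACH match had its A at -28 nt from the median summit and the nearest GGAC at 62 nt. Another SOX12 group, of 2 C4-2B lists, had no DRACH match within 50 nt of its median summit. The larger SOX11 group, of 6 lists with 3 in each line, had its nearest DRACH match at -46 nt. The close matches shown are thus not typical of SOX11 and SOX12. SOX9 summits fell at 2 places. At one, the nearest GGAC lay 13 to 17 nt after the summit in 4 lists, and at the other it lay at -26 nt in C4-2B replicate 1 and no GGAC stood within 50 nt in the other 3 lists. Over the 9 SOX regions with an exonic strongest summit, GGAC stood within 50 nt of the summit on the gene strand in 3 (33.3%), those of SOX9, SOX8 and the SOX13 stop codon, beside 46.2% of the 16886 such summits in the series. DRACH stood there in 8 of 9, beside 87.7% in the series, so that a DRACH match near a summit sets no region apart. At SOX8 region 2 the strongest summit was that of C4-2B replicate 2. Summits of the other lists called there had neither motif within 50 nt.

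One list stood apart from the rest. C4-2B replicate 1 held 13191 peaks, against 23254 to 30645 in the other 7, and the fitted differences are given without it where the regions are set side by side. The depth recovered from the peak statistics was 0.864 to 1.21 M IP tags per library (M, 1000000), a tag being a read kept by the authors' filters. The input libraries held 0.901 to 1.23 M tags in C4-2B and 1.60 to 2.97 M in MDV-R, without overlap, so that input depth and line cannot be told apart. The labelled cell type was checked against markers. Of 10 luminal prostate markers 8 held a called region, among them KLK2, KLK3, TMPRSS2, FOLH1, SLC45A3 and HOXB13, and KRT8 and KRT18 held none. A called region was held by 1 of 4 basal markers (ITGA6), 1 of 6 neuroendocrine markers (ENO2) and 2 of 5 stromal markers (VIM and COL1A1). Of all protein-coding genes, 56.5% held a called region. A region needs the mark as well as the transcript, so that these counts are a limited check of cell type.

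Peaks marked 7 of the 10 SOX genes, and 6 of them held a region of the merged list that was called in at least 1 list, beside 56.5% of the 20033 protein-coding genes. A region called in all 8 lists was found in 5 genes, SOX4, SOX9, SOX11, SOX12 and SOX13, beside 32.0% of protein-coding genes. SOX2, SOX5 and SOX6 had no peak in any list. A peak needs both the transcript and the mark, and input abundance was not analysed here, so the absence of a peak says nothing of the abundance of these RNAs. Of the 13 regions, 12 were called at least once, 5 in all 8 lists and 7 in part of them. Of all regions called at least once, 25.9% were called in all 8 lists. The strongest summit of the 12 lay in the 3′UTR in 5, in the CDS in 3, in an intron in 3 and in the 5′UTR in 1. For SOX8 region 2, counted under 3′UTR, 4 of the 5 lists had their summit in the CDS. Over all called regions the shares were 13.7% for 3′UTR, 25.2% for CDS, 31.8% for introns and 5.65% for 5′UTR.

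No SOX region was called in all 4 lists of a line and in none of the other. In the series, 1.22% of called regions were called in 4 lists of C4-2B with 0 of MDV-R, and 3.68% in 4 of MDV-R with 0 of C4-2B. With 4 lists against 4, Fisher's exact test (two-sided) cannot go below p = 0.0286, no SOX region had an unadjusted p under 0.05, and the lowest adjusted p over all 36076 regions was 0.584, so that no region of the series passed. The regions nearest to such a pattern were SOX8 region 2, called in 4 C4-2B lists and 1 MDV-R list, and SOX13 region 2, called in 3 C4-2B lists and 0 MDV-R lists (exact p = 0.143 and adjusted p = 0.997 for each). The pattern of SOX8 region 2 was shared by 177 regions of the series (0.491%).

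**Figure D1:**
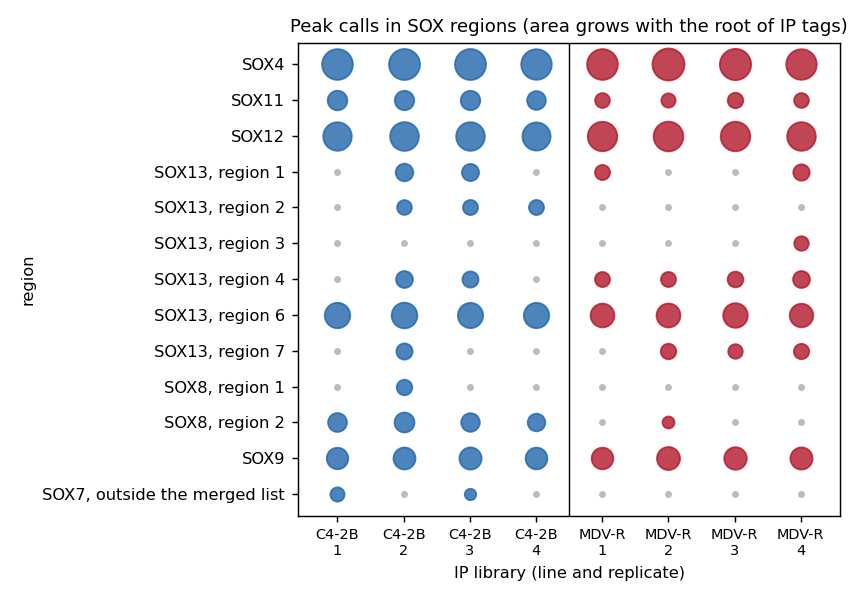
Peak calls in the 12 called SOX regions and at SOX7 (rows) in the 8 IP libraries (columns, C4-2B blue, MDV-R red), where a filled circle is a called peak whose area grows with the square root of its IP tags and a grey dot is no call. SOX4, SOX12 and SOX13 region 6 carry the largest circles in every library, SOX8 region 2 has 4 circles on the C4-2B side and 1 on the MDV-R side, and SOX13 region 2 has circles in C4-2B alone.

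SOX2 (chr3:181711925-181714436, plus strand) is a single-exon gene inside the long noncoding gene SOX2-OT. None of the 8 lists held a peak in the span of SOX2. SOX2-OT held 2 regions outside SOX2, called in 1 and in 3 MDV-R lists and in no C4-2B list.

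By -log10 p and by IP tags, SOX4 carried one of the strongest peaks of the series in both lines. Both measures rise with the abundance of a transcript as well as with its mark. SOX4 (chr6:21593751-21598619) is a single-exon activator of development and of tumour cell growth. Its region, chr6:21593623-21597198, was 3576 nt long, longer than 97.5% of the regions called in all 8 lists, and took in the whole CDS. Ranked by -log10 p, its peak stood between place 2 and place 23 in every list, and by IP tags between place 8 and place 17. The 8 summits fell within 25 nt of each other, 735 to 760 nt after the stop codon, so that the strongest signal was in the 3′UTR in both lines. A noncoding gene overlaps the region but not the summits.

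IP tags over a summit were scaled to library depth and are given in counts per 1000000 IP tags (CPM), so that a value belongs to a single position and does not grow with the length of a gene. At the SOX4 summit the IP CPM was 216, 266, 287 and 293 in C4-2B replicates 1 to 4 and 290, 327, 271 and 282 in MDV-R replicates 1 to 4. The groups overlapped, and C4-2B replicate 1 was the lowest of the 8. The means were 265 ± 35.2 and 292 ± 24.4 (SD, n = 4 each) in the order C4-2B, MDV-R, as in all pairs of means that follow. With each list centred on its median, limma gave MDV-R 1.04-fold over C4-2B (log2 difference 0.06 ± 0.07 SE, adjusted p = 0.428). The 95% interval of the difference ran from -0.07 to 0.20 on the log2 scale. Fold enrichment over local background was 9.30, 18.4, 19.6 and 15.8 in C4-2B and 19.6, 26.9, 9.97 and 28.9 in MDV-R, and the lines overlapped between 9.97 and 19.6, with MDV-R replicates 2 and 4 above every C4-2B library (limma log2 difference -0.02 ± 0.25 SE, adjusted p = 0.979). The sign of that difference changed when libraries were left out or lists were not centred. Mean log2 fold enrichment stood 0.57 above the median of the regions tested in C4-2B and 0.55 above it in MDV-R. Local background at the summit, given as a multiple of the mean background of each library, was 66.6, 40.4, 40.8 and 52.5 in C4-2B and 41.1, 33.4, 78.8 and 26.02 in MDV-R. MDV-R held both the highest of the 8, replicate 3, and the lowest, replicate 4 (limma log2 difference 0.23 ± 0.16 SE, adjusted p = 0.371, and -0.26 without centring).

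SOX12, the weakest activator of the C group and the partner of SOX4 and SOX11 in development, had the next most IP tags of the set. SOX12 (chr20:325552-330224) held a region at chr20:325393-328595, 3203 nt, that covered the whole CDS and 65.1% of the transcript. The noncoding gene NRSN2-AS1 spans the summits, and the peak lists carry no strand, so that its reads and those of SOX12 cannot be told apart here. IP CPM at the strongest summit was 147, 198, 190 and 212 in C4-2B and 243, 241, 215 and 217 in MDV-R. Every MDV-R library was above every C4-2B library. The MDV-R values were read at close places and the C4-2B values at varied places of the region, as given below. In C4-2B replicates 1 and 3 the other peak of the list had more, 160 and 210 CPM, which was still below every MDV-R value. The means were 187 ± 27.7 and 229 ± 14.9 (SD, n = 4 each), and limma gave MDV-R 1.17-fold over C4-2B (log2 difference 0.22 ± 0.07 SE, adjusted p = 0.00532). Called changes in this measure were common, since 24.9% of the 9327 regions tested were higher in MDV-R and 29.2% lower (20.8% and 14.8% without centring).

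Fold enrichment at SOX12 was 6.09, 8.67, 10.8 and 10.4 in C4-2B and 12.2, 15.6, 6.45 and 15.3 in MDV-R, with MDV-R replicate 3 among the C4-2B values. After centring the difference in limma was 0.01 ± 0.24 SE on the log2 scale (adjusted p = 0.985). The centred log2 means were -0.22 in C4-2B and -0.21 in MDV-R, below the median of the regions tested. Local background at SOX12 was 69.9, 65.9, 49.6 and 58.0 in C4-2B and 56.8, 43.5, 97.6 and 39.6 in MDV-R, where replicate 3 was again the highest. It did not pass (0.37 ± 0.15 SE, adjusted p = 0.101, and -0.12 without centring). In all 4 MDV-R lists the summit lay 45 to 75 nt after the stop codon. In C4-2B, the strongest peak had its summit at -481 nt from the end of the stop codon in replicate 2, at 98 nt in replicate 4, and at 1134 and 1135 nt in replicates 1 and 3, whose lists split the signal into 2 peaks. The other peak of replicate 3 had its summit 29 nt after the stop codon and nearly the same strength (-log10 p of 114.9 against 120.0, with 196 tags against 177), so that which of them counted as strongest was close to a tie. No test was run on summit positions.

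Among the 5 regions fitted in limma, SOX11 showed the clearest difference between the lines, in IP tags. SOX11 (chr2:5692384-5701385), a C group activator of neuronal development with a 7338-nt 3′UTR, held a region at chr2:5692270-5694144 that covered the whole CDS and 19.6% of the transcript. All 10 peaks had their summit in the CDS, in groups at -914 to -815 nt and at -139 to -53 nt from the end of the stop codon. IP CPM was 35.6, 41.6, 45.0 and 41.7 in C4-2B and 15.5, 12.7, 16.6 and 15.6 in MDV-R. Every C4-2B library was above every MDV-R library. The means were 41.0 ± 3.90 and 15.1 ± 1.64 (SD, n = 4 each), and limma gave C4-2B 2.88-fold over MDV-R (log2 difference -1.52 ± 0.16 SE, adjusted p = 2.88e-09). Of the 9327 regions, 1.29% had a difference as low or lower. Behind these values were 36 to 43 IP tags in C4-2B and 12 to 17 in MDV-R.

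The number of IP tags follows both the abundance of the transcript and the share of it that carries the mark. Fewer transcripts and less methylation per transcript cannot be told apart from it, nor can fewer cells of a type and less RNA per cell in bulk RNA. Fold enrichment at SOX11 was 13.4, 32.2, 17.4 and 12.8 in C4-2B and 11.5, 9.90, 13.4 and 10.9 in MDV-R, so that the lines overlapped between 12.8 and 13.4. The centred log2 difference was -1.03 ± 0.30 SE with adjusted p = 0.0684, which misses the threshold, where 0.901% of regions were called higher and 1.77% lower in MDV-R (3.02% and 0.214% without centring). It passed without C4-2B replicate 4 (-1.23, adjusted p = 0.0453) or without MDV-R replicate 3 (-1.25, adjusted p = 0.0272), and was smaller without C4-2B replicate 2 (-0.80, adjusted p = 0.173) or without centring (-0.63, adjusted p = 0.247). Local background was 4.88, 1.00, 4.71 and 6.57 in C4-2B and 1.00, 1.00, 1.00 and 1.24 in MDV-R. The value 1.00 is the floor of the scale and only a bound, reached in C4-2B replicate 2 and MDV-R replicates 1 to 3. The fold enrichment of these libraries is taken over that floor, so that the difference in fold enrichment rests in part on bounds as well. For local background limma gave -1.24 ± 0.56 SE (adjusted p = 0.147).

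**Figure D2:**
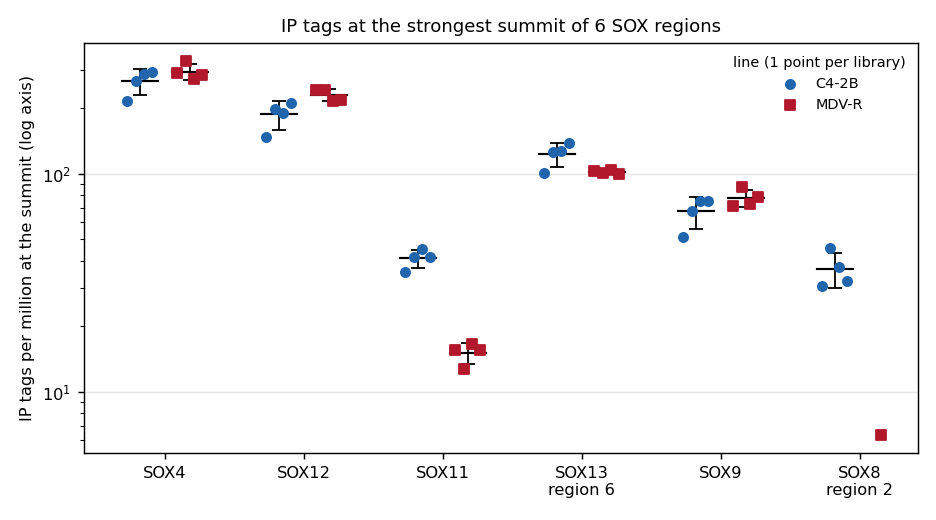
IP CPM at the strongest summit of 6 SOX regions (log axis), 1 point per library (C4-2B circles, MDV-R squares), with the mean and SD where a line has 4 values. SOX4 and SOX12 sit highest, the SOX11 values of the lines do not overlap, and SOX8 region 2 has a single MDV-R value of 6.37.

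SOX5 (chr12:23529504-24562544, minus strand) and SOX6 (chr11:15966449-16739591, minus strand), coactivators of SOX9 in cartilage that span the longest genes of the set, held no region and no peak. SOX13 (chr1:204073115-204127743, plus strand), the third D group gene, held 7 regions, of which 6 were called. Region 6 (chr1:204125769-204126570), over the stop codon in exon 14, had a peak in every list. Its 8 summits fell within 21 nt, at -81 to -60 nt from the end of the stop codon. IP CPM there was 101, 126, 126 and 139 in C4-2B and 103, 101, 104 and 99.3 in MDV-R. Only C4-2B replicate 1 lay among the MDV-R values. The means were 123 ± 15.8 and 102 ± 2.22 (SD, n = 4 each).

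The difference at SOX13 region 6 was small and passed the test in limma, with C4-2B 1.27-fold over MDV-R (log2 difference -0.35 ± 0.07 SE, adjusted p = 5.43e-05). It was -0.26 with adjusted p = 0.113 when the lists were not centred. Fold enrichment at this region ran the other way. It was 7.09, 15.2, 12.4 and 18.1 in C4-2B and 26.5, 23.0, 11.5 and 28.0 in MDV-R, with MDV-R replicate 3 below the rest of its line, and did not pass (log2 difference 0.35 ± 0.26 SE, adjusted p = 0.504). Local background was 39.95, 21.98, 27.5 and 19.7 in C4-2B and 8.46, 10.1, 24.4 and 7.42 in MDV-R. MDV-R replicate 3 was the only library of its line among the C4-2B values (log2 difference -0.75 ± 0.27 SE, adjusted p = 0.0727, where 6.62% of regions were called higher and 9.75% lower, or 1.80% and 13.4% without centring).

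The other SOX13 regions were weaker. Region 4 (chr1:204121686-204122381), with summits in an intron, was called in all 4 MDV-R lists and in C4-2B replicates 2 and 3 (exact p = 0.429). Its IP CPM was 23.8 and 21.4 in those C4-2B lists and 16.6, 15.9, 17.5 and 26.8 in MDV-R, so that MDV-R replicate 4 was the highest of the 6. Its fold enrichment was 11.3 and 10.1 in C4-2B and 5.68, 6.19, 8.31 and 14.4 in MDV-R. Region 2 (chr1:204080450-204081322), in an intron, was called in C4-2B replicates 2, 3 and 4 and in no MDV-R list (exact p = 0.143), at 13.9 to 17.4 IP CPM. Without C4-2B replicate 1 it was called in every list of one line and none of the other. Region 1, over the first exon and also within a noncoding gene, had peaks in C4-2B replicates 2 and 3 and MDV-R replicates 1 and 4, at 16.6 to 27.7 CPM. Region 7, in the 3′UTR, had peaks in C4-2B replicate 2 and MDV-R replicates 2, 3 and 4, at 12.7 to 19.8 CPM. Region 3 was called in MDV-R replicate 4 alone, and region 5 in no list.

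SOX8 was called mostly in C4-2B. SOX8 (chr16:981770-986979), an E group factor of neural crest and testis, held 2 regions. Region 2 (chr16:984475-986149) lies in exon 3 and the intron before it, and takes in 51.0% of the CDS. All 4 C4-2B lists and MDV-R replicate 2 had a peak there, with summits from -333 to 304 nt around the end of the stop codon. IP CPM was 30.7, 45.6, 37.5 and 32.4 in C4-2B and 6.37 in MDV-R replicate 2. The C4-2B peaks rested on 28 to 46 tags and the MDV-R peak on 6, beside a smallest peak of 4 tags in that list. Fold enrichment was 9.55, 17.8, 13.3 and 14.9 in C4-2B and 5.33 in MDV-R replicate 2. By -log10 p the MDV-R peak stood at place 25500 of 27131 in its list, and the C4-2B peaks between place 4460 and place 7154. Without MDV-R replicate 2 the region was called in every C4-2B list and no MDV-R list. An uncalled list has no value, so no difference in level was fitted. Region 1 was called in C4-2B replicate 2 alone, with its summit in exon 2.

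SOX9, the E group factor of cartilage, testis and epithelial progenitors, was marked at its stop codon in every list. SOX9 (chr17:72121020-72126416) held a region at chr17:72123818-72124874, wholly within exon 3. The noncoding gene SOX9-AS1 and a further noncoding gene span it, and without strand their reads cannot be told apart from those of SOX9. The summits lay 48 to 160 nt after the stop codon. They formed one cluster 48 to 52 nt after it in 4 lists and lay 112 to 160 nt after it in the other lists, with both lines in each. IP CPM was 51.4, 67.4, 75.0 and 75.3 in C4-2B and 71.0, 87.1, 73.0 and 78.1 in MDV-R. The lines overlapped, with means of 67.3 ± 11.2 and 77.3 ± 7.18 (SD, n = 4 each), and limma gave a log2 difference of 0.13 ± 0.08 SE (adjusted p = 0.196, 95% interval -0.04 to 0.30). Fold enrichment was 6.90, 11.6, 16.0 and 13.8 in C4-2B and 16.6, 29.1, 13.8 and 16.4 in MDV-R (0.26 ± 0.26 SE, adjusted p = 0.644). Local background was 19.5, 14.6, 11.0 and 13.1 in C4-2B and 9.67, 5.91, 13.1 and 11.1 in MDV-R, with the lines overlapping between 11.0 and 13.1 (-0.09 ± 0.30 SE, adjusted p = 0.878, with the sign turned when MDV-R replicate 2 or 3 was left out). C4-2B replicate 1 had the lowest IP CPM and fold enrichment and a peak of 389 nt, against 855 to 1021 nt in the other lists.

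**Figure D3:**
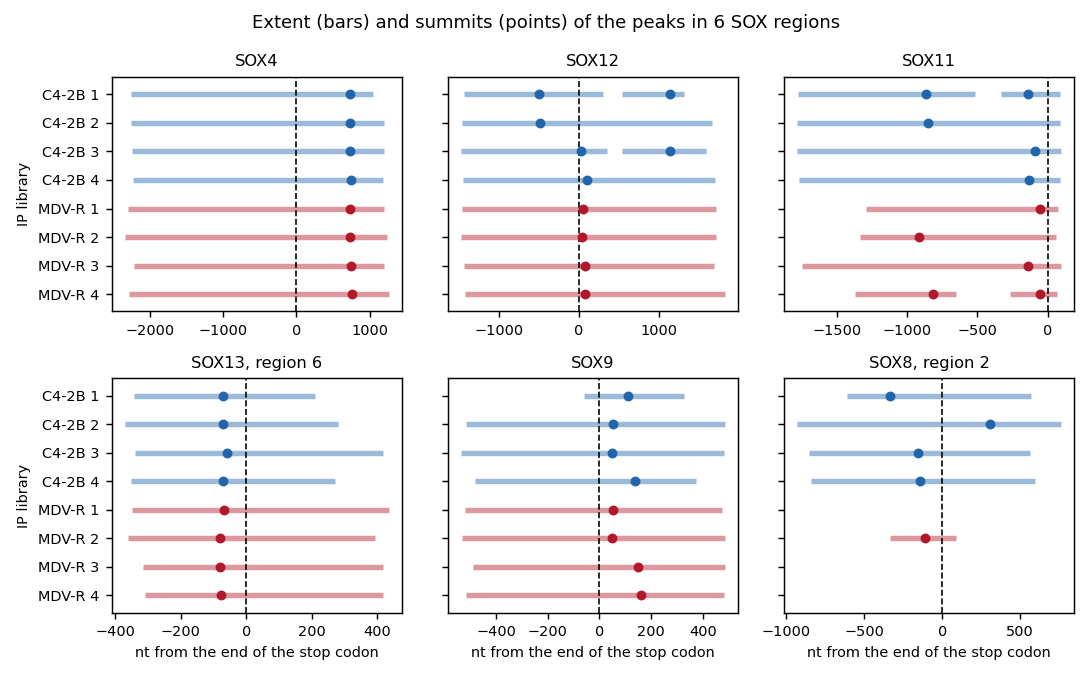
Extent (bars) and summit (points) of every peak in 6 SOX regions, 1 row per IP library (C4-2B blue, MDV-R red), along the genome in nt from the end of the stop codon (dashed line). SOX4 summits stack within 25 nt at 735 to 760 nt, SOX13 region 6 summits stack just before the stop codon, and SOX12 summits sit at 45 to 75 nt in MDV-R but at varied places in C4-2B.

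SOX7 (chr8:10723768-10730511, minus strand), an F group endothelial factor, had a peak in C4-2B replicates 1 and 3 and in no MDV-R list, and no region of the merged list. These were the 2 SOX peaks outside that list. They rested on 12 and 5 IP tags, with fold enrichments of 7.66 and 4.58. Both summits also lie in the span of PINX1, and which of the genes they belong to was not tested.

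Set side by side, the 5 regions called in all 8 lists differed in what moved. In IP tags, SOX12 was higher in MDV-R, SOX11 and SOX13 region 6 were lower, and SOX4 and SOX9 did not pass. Of the 9327 regions tested, 24.9% were higher in MDV-R and 29.2% lower, so that passing in this measure was common. In fold enrichment and in local background none of the 5 passed in limma. Unadjusted p-values fell under 0.05 for 1 region in fold enrichment (SOX11) and for 3 in local background (SOX11, SOX12 and SOX13 region 6). The share of the series under that unadjusted threshold was not counted, so these numbers set no SOX region apart. Without C4-2B replicate 1 the same 3 regions passed in IP tags, with log2 differences of -1.49 for SOX11 (adjusted p = 1.53e-07), -0.34 for SOX13 region 6 (adjusted p = 0.000549) and 0.21 for SOX12 (adjusted p = 0.0235). In fold enrichment none passed without it, and the difference was 0.22 at SOX13 region 6, 0.15 at SOX9, -0.12 at SOX4, -0.03 at SOX12 and -1.03 with adjusted p = 0.115 at SOX11. The order of IP tags within C4-2B was SOX4, SOX12, SOX13 region 6, SOX9 and SOX11, and it was the same in MDV-R. No neighbours in that order overlapped in either line, the closest being SOX4 and SOX12 in C4-2B, with 216 CPM the lowest SOX4 value and 212 CPM the highest SOX12 value.

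**Figure D4:**
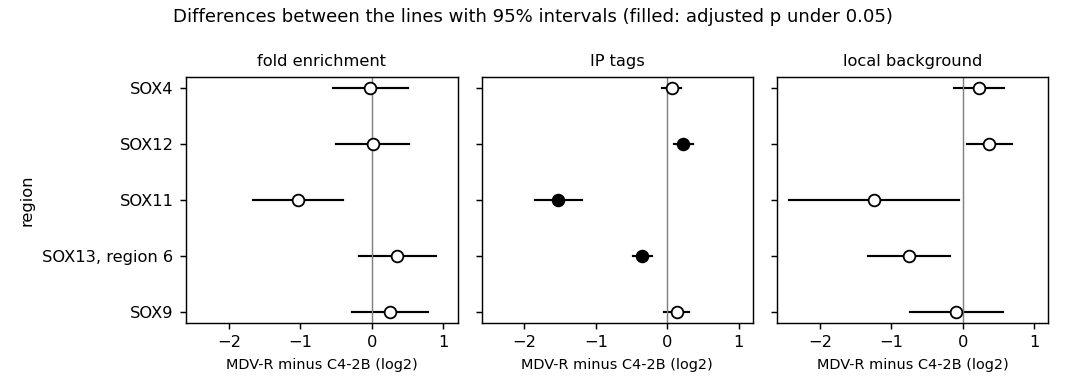
Log2 difference MDV-R minus C4-2B (points, filled where the adjusted p in limma is under 0.05) with its 95% interval (bars) for the 5 regions called in all 8 lists, in 3 panels for fold enrichment, IP tags and local background, each list centred on its median. SOX11 lies furthest to the left in all 3 panels and is filled only for IP tags, where SOX12 and SOX13 region 6 are filled as well.

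The share of each transcript under peaks was taken from the extents of the same called peaks, so that it is not independent of their height. For SOX4 the covered shares were 69.0% ± 1.52 and 70.5% ± 0.73 (SD over 4 lists, C4-2B first, here and for the genes that follow). For SOX12 the shares were 59.6% ± 6.08 and 65.5% ± 1.33. For SOX9 they were 20.8% ± 7.47 and 25.4% ± 0.51, where C4-2B replicate 1 had 9.90% and the others 21.8% to 25.9%. For SOX11 they were 19.0% ± 1.06 and 15.5% ± 3.21. For SOX13 they were 22.7% ± 12.1 and 31.3% ± 5.14, with C4-2B replicate 1 the lowest at 12.0%. For SOX8 they were 43.1% ± 6.39 and 3.42% ± 6.84, since 3 MDV-R lists had none.

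**Figure D5:**
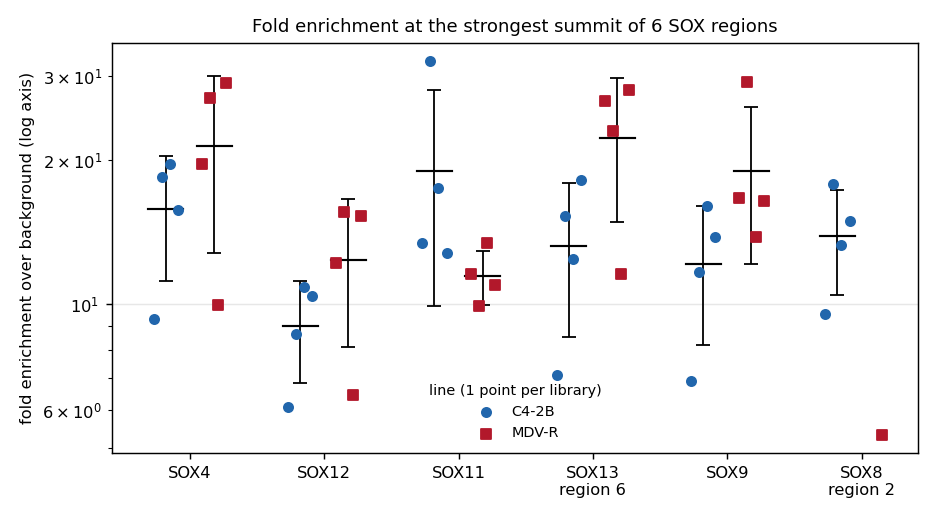
Fold enrichment over local background at the strongest summit of 6 SOX regions (log axis), 1 point per library (C4-2B circles, MDV-R squares), with the mean and SD where a line has 4 values. The lines overlap in each of the 5 regions that have values in both lines throughout, and SOX8 region 2 has a single MDV-R value of 5.33.

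Other genes of the family and of its partners were counted by the same rule. Over all protein-coding genes, 56.5% held a called region and 32.0% a region called in all 8 lists, to be set beside the counts that follow. Of 9 further SOX genes, 2 held a called region and none held a region called in all 8 lists. SOX15 held a region that also overlaps MPDU1, with a peak in 3 lists of C4-2B and 4 of MDV-R at 37.7 to 47.2 IP CPM, and SOX18 a region called in 2 MDV-R lists. Of 18 genes for proteins that act with SOX factors, 12 held a called region and 4 held a region called in all 8 lists, the TCF family factor LEF1, the POU factor POU2F1, the TGF-beta signal transducer SMAD3 and the acetyltransferase EP300. POU3F2, a neural POU factor that works with SOX2 and SOX11, had a CDS region with a peak in 3 lists of C4-2B and 4 of MDV-R. MAF, which acts with SOX9 in cartilage, held a region called in 4 lists of C4-2B and 0 of MDV-R, at 15.8 to 20.8 IP CPM.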

How the data were processed

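Per the labels and the study's methods, reads were mapped by the authors with STAR 2.7.0 (hg38, GENCODE 39) and filtered with SAMtools 1.10 to unique, deduplicated ones. MACS2 (version 3.0.0a6 in the submitters' processing notes) called peaks per IP library against its input, with a 100-nt extension and a genome size of 300 Mb. The deposited lists give, per peak, a fold enrichment (a ratio), a −log10 p-value, a −log10 q-value and a score. The score was not used. The deposited merged list gives positions alone, and how it was made is not given in the sources used here. The cell line field of the labels set the groups, although MDV-R titles also carry another name. The differential test of the study needs counts per region and was not run.

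A region was called in a list when 1 bp of a peak overlapped it. IP tags, local background and library depth were recovered from fold enrichment and −log10 p, which together fix a whole number of tags, in 99.996% to 100.0% of the peaks per list. Per region and list the peak of highest −log10 p was taken. Calls were compared with Fisher's exact test, and log2 values at the 9327 regions called in all 8 lists with limma 3.58.1 (R 4.3.3, trended eBayes, lists centred on their median), both with Benjamini-Hochberg adjustment over all regions. For 1 region a value was missing in MDV-R replicate 1. Genes and transcripts were those of GENCODE 44, with the Ensembl canonical transcript for positions. Scripts were tested on simulated data. All 10 genes were named, regions called in all 4 lists of a line in full, and the context lists by counts, with some of their genes not reported here by name. Members and lists were chosen with earlier results of these data known. Tags lack molecular identifiers, and SE and p-values cover only the spread between these libraries.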

Additional observations from a re-analysis of the deposited data

Results flagged for a closer look

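Among 36 sets of 4 values from 1 line (IP CPM, fold enrichment and local background at the SOX regions with 4 calls in a line), 3 held a library far from the other 3 by Dixon's criterion, which flags about 1 set in 20 by chance. Local background at SOX11 was 1.24 in MDV-R replicate 4, where the other 3 MDV-R libraries were at the floor of 1.00, a bound and not a measured level. With those 3 tied, any value above the floor meets the criterion, so that this flag does not mark an outlying library. IP tags at SOX13 region 4 were 26.8 CPM in MDV-R replicate 4, against 15.9 to 17.5 in the others. Local background at SOX13 region 6 was 24.4 in MDV-R replicate 3, against 7.42 to 10.1 in the others. The cause was not tested.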

How the results depend on the processing

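The number of SOX regions called in 4 lists of one line and 0 of the other, 0 as reported, was 1 with every list trimmed to its 13191 strongest peaks (SOX8 region 2), and 0 to 1 when libraries were left out (SOX13 region 2 without C4-2B replicate 1, SOX8 region 2 without MDV-R replicate 2). With the trimmed lists SOX11 was called in 4 C4-2B lists and 2 MDV-R lists. The number of regions past the threshold in limma was 3 for IP tags, and 2 to 4 under the alternatives. For fold enrichment it was 0, and 0 to 1 when libraries were left out (SOX11). For local background it was 0, and 2 without centring (SOX11 and SOX13 region 6), 1 with regions called in at least 3 lists of each line (SOX13 region 6), and 0 to 1 when libraries were left out. With the replicate block the counts were 3, 0 and 0. Replicate numbers did not pair the samples (correlations of deviations -0.07 to 0.04), and the block moved no count. The DRACH share was 88.9% in place of 33.3% for GGAC. Differences that changed sign were all short of the threshold. Without centring they were 0.38 for SOX4 fold enrichment, -0.26 for SOX4 background and -0.12 for SOX12 background. With regions called in at least 3 lists of each line SOX4 fold enrichment was 0.031. When libraries were left out, it ran from -0.12 to 0.17, SOX12 fold enrichment from -0.057 to 0.16, and SOX9 background from -0.30 to 0.065. SOX4 IP tags passed without MDV-R replicate 3 (0.13, adjusted p = 0.0379). The IP tag differences of SOX11 (-1.56 to -1.43) and SOX12 (0.19 to 0.31) kept sign and side under every alternative run, and that of SOX13 region 6 kept its sign. Leaving out the centring moved the median difference of all regions by 0.40 for fold enrichment and -0.49 for local background. Over all regions the calls numbered 249 for fold enrichment (122 to 488 under the alternatives), 5047 for IP tags (3320 to 6032) and 1526 for local background (1042 to 2009), and regions of C4-2B alone and MDV-R alone, 439 and 1327, were 567 and 516 with trimmed lists and 1079 and 1337 without C4-2B replicate 1.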
